A study of Homo sapiens with 2 samples.

Results

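Ribosome biogenesis is the assembly line that turns a long precursor RNA and many proteins into ribosomal subunits, most of it inside the nucleolus. The genes described here are 41 factors of that line, listed by name and sorted into RNA polymerase I transcription, the small subunit, the large subunit, the small nucleolar ribonucleoproteins (snoRNPs) and a few proteins that act at several steps. For 36 of the 41 the array carried at least 1 probe set annotated to that gene alone, out of 19775 genes with such a probe set. BOP1, DDX18, GNL3, NOP56 and DKC1 had none and have no value here. The values come from 2 Affymetrix arrays, 1 per condition, of the line DLD-1, which was derived from a human colorectal carcinoma and has a mutated p53 of its own. In both conditions the cells had been stably transfected with wild-type p53 under tet-off control, so that tetracycline shuts the transgene down. One array holds RNA of cells grown with tetracycline (p53 off), the other RNA of cells grown for 9 h in its absence (p53 on). The question was how turning on wild-type p53 bears on these transcripts.

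RNA polymerase I copies the ribosomal DNA, helped by the factors UBTF and RRN3. Large assemblies then fold, cut and modify the precursor into the RNA of the small and the large subunit. The snoRNPs direct the methylation and pseudouridylation of single nucleotides. The pathway is tied to growth: MYC activates many of its genes, colorectal tumours usually run it at a high rate, and failure of assembly is known to stabilise p53 through ribosomal proteins that hold back MDM2.

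Values are MAS5 signal intensities in arbitrary units, and of any pair of signals the first is p53 off and the second p53 on. Where a gene had several probe sets, the brightest one on average stands for it. Ratios are log2 of p53 on over p53 off, with any signal below a floor of 112.4 replaced by the floor, and a gene counts as lower or higher when it differed by at least 1.5-fold. With 1 array per condition there is no replicate and no test, so each ratio describes these 2 arrays. The conditions also differ in tetracycline itself, which cannot be told apart from p53 here. The arrays had median signals of 103 (p53 off) and 122 (p53 on). All 7 colon epithelial markers were measured, with signals of 690 to 33328 and 461 to 57766 on the 2 arrays. The leukocyte, fibroblast and endothelial markers were dim: 6 of 16 were under the floor on both arrays, and none exceeded 231. The summed signals of these markers were higher with p53 on, as was that of the 7 colon epithelial markers (107010 and 172161). The sums were 276 and 621 for 5 leukocyte, 376 and 821 for 6 fibroblast and 389 and 618 for 5 endothelial markers. The part of other cell types in the results was not tested.

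The members were mostly lower with p53 on. Of the 36, 21 were lower by at least 1.5-fold, 3 were higher by as much and 12 lay between. Among all 13915 measured genes 25.9% were lower and 25.9% higher by that size. At 2-fold, 14 members were lower and 2 higher, against 13.5% and 15.3% of all genes. The median log2 ratio was -0.89 over the members and 0.0035 over all genes. Most of the lower members belonged to the subunit steps. There, 18 of 22 were lower and none was higher (UTP15 and NOP14 were higher after quantile normalization or loess), with a median of -1.17, while of the 14 members of the other steps 3 were lower and 3 higher, with a median of -0.26. The difference between the steps was not tested.

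**Figure D1:**
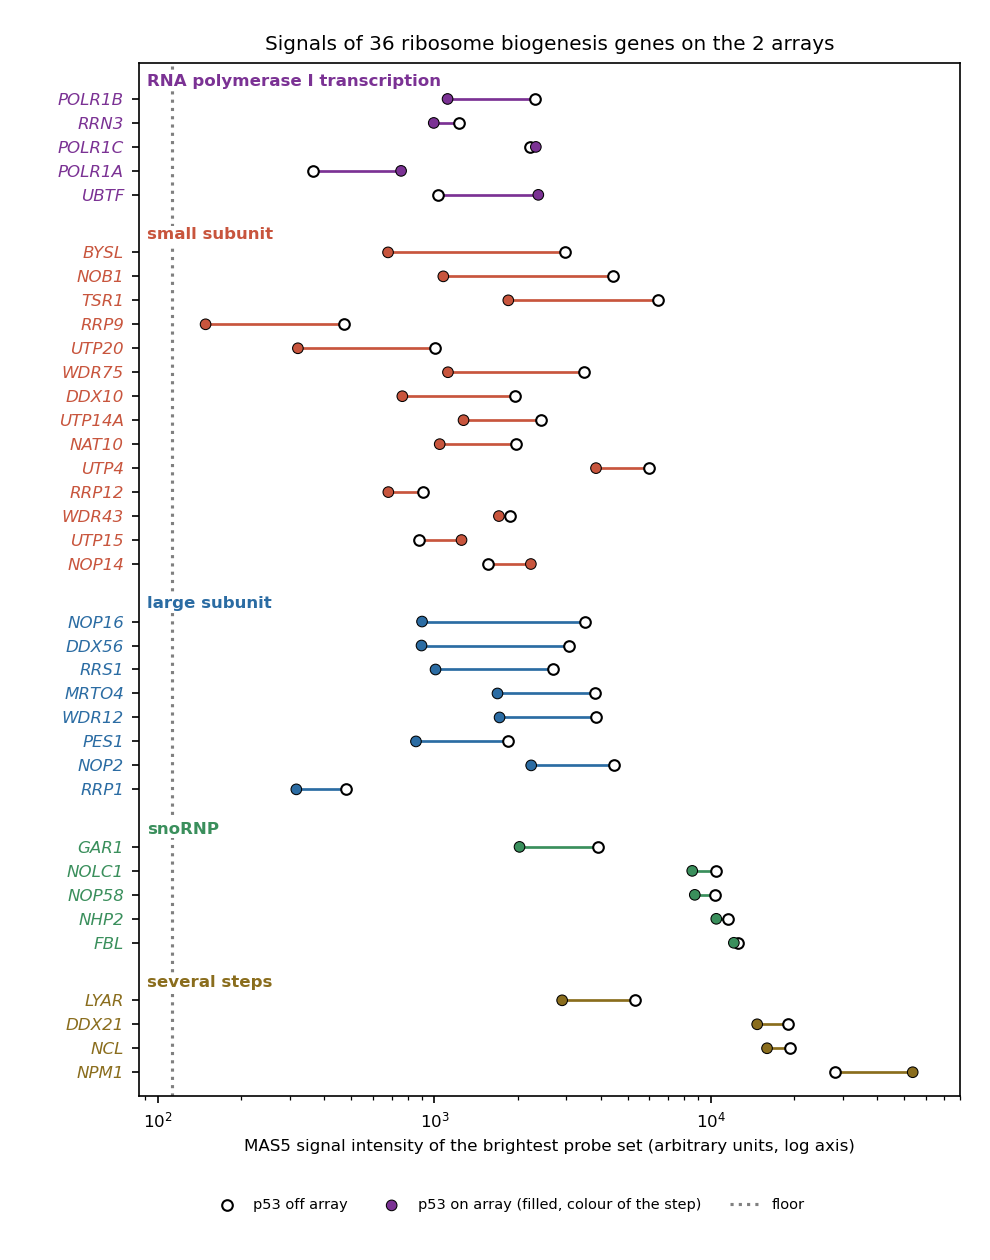
Signal intensity of each measured member on the p53 off array (open circle) and the p53 on array (filled circle), on a log axis in arbitrary units, by step. The filled circles lie to the left of the open ones for 30 of 36 members, and the shortest lines belong to FBL, POLR1C, WDR43 and NHP2.

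The control probe sets also differed between the arrays. The beta-actin control read 1.37 times as bright at the 3' end as at the 5' end with p53 off, and 7.29 times with p53 on. The GAPDH control gave 0.97 and 1.77. Control RNA spiked into the hybridization, covered by 18 probe sets, was brighter with p53 on, by 1.89 times in the median. Scaling to these spike-ins put the median of all genes at -0.80, and the members' counts were 32 lower and 0 higher, beside 58.7% and 9.55% of all genes. Lower and higher therefore mean relative to the median gene, and the part of the change at the 5' end in the members' ratios was not tested.

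The promoters of the members were searched for a motif that played no part in choosing them. The canonical E-box, CACGTG, reads the same on both strands and is bound by MYC and its relatives. It was searched in the RefSeq promoter windows of GRCh38.p14, which run from 250 bases before to 50 bases after a start. Of 35 members with a window, 16 held the motif in at least 1 window (45.7%), against 8.77% of all 27305 genes and 10.9% of 15842 protein-coding genes. The members' windows had a median GC content of 64.3%, and those of protein-coding genes 62.3%. BOP1, DDX18, NOLC1, NOP58, RRP12 and RRS1 had no window. In 15 of the 16 the motif began between positions -64 and 36, counted with the first transcribed base as 1. These limits were read off the members' own motifs, and the positions of the motif in all genes were not compared. The windows below show 30 bases around the motif, in capitals, read 5′ to 3′ on the strand of the gene. The first 7 belong to subunit genes that were lower with p53 on, and the last 3 to genes that were not, so that both can be compared.

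BYSL, chr6:41921515-41921544, + strand: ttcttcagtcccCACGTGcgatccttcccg

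RRP9, chr3:51941892-51941921, - strand: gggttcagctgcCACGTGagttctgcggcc

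UTP20, chr12:101280083-101280112, + strand: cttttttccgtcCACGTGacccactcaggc

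NAT10, chr11:34105602-34105631, + strand: aatgcgcttgcgCACGTGctgtctaccagt

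UTP4, chr16:69132621-69132650, + strand: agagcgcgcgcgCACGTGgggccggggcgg

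MRTO4, chr1:19251807-19251836, + strand: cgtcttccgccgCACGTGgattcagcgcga

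PES1, chr22:30591880-30591909, - strand: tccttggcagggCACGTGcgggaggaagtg

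WDR43, chr2:28894658-28894687, + strand: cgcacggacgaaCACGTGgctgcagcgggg

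NOP14, chr4:2963374-2963403, - strand: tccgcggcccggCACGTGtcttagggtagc

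FBL, chr19:39846356-39846385, - strand: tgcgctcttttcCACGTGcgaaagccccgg

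The motif occurred in members of every step except RNA polymerase I transcription, and with either outcome on the arrays. Of the 15 measured members with the motif, 11 were lower and none higher, with a median log2 ratio of -0.93. Of the 17 measured members whose windows lacked it, 9 were lower and 3 higher, with a median of -0.59. NOB1, TSR1 and NOP16, which were among the 5 members with the smallest log2 ratios, did not hold these letters in their windows. MYC itself read 5388 and 1649 on its single measured probe set, and its part in the members' ratios was not tested.

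The RNA polymerase I genes differed in direction. Of the 5, POLR1B was lower, POLR1A and UBTF were higher, and POLR1C and RRN3 lay between, with a median log2 ratio of 0.071. POLR1B, the second largest subunit of the polymerase, read 2308 and 1116, 2.07-fold lower. Of its 3 other probe sets 2 were also lower, at log2 ratios of -1.13 and -1.27, and 1 was at 0.70. The names of all but the one at -1.27 mark shared sequence. POLR1A, the largest subunit, read 363 and 757, 2.09-fold higher. That value rests on 1 of its 3 probe sets. The others read 508 and 515, and 368 and 338, so the log2 ratios within this gene ran from -0.13 to 1.06. The mean over its probe sets was 0.32, no longer past 1.5-fold, and after scaling to the spike-ins POLR1A was at -0.90.

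UBTF, the architectural factor that opens the ribosomal DNA for transcription, read 1031 and 2376 and was 2.31-fold higher, the largest ratio of all members. Of its 4 measured probe sets 3 were higher, with log2 ratios of 1.03 to 1.36, and 1 was lower at -0.62. After scaling to the spike-ins UBTF was at 0.29, no longer past 1.5-fold. POLR1C, a subunit shared with RNA polymerase III, had nearly equal signals of 2217 and 2328, and its other probe set had a log2 ratio of -0.32. RRN3, which brings the polymerase to the promoter, read 1228 and 994 on its only probe set, a log2 ratio of -0.30. RRN3 has near-identical pseudogene copies, so its signal is uncertain.

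The small subunit genes were lower in 10 of 14 cases, with no member higher and a median log2 ratio of -1.15. The smallest ratios belonged to factors of the late maturation of the small subunit. BYSL, bystin, which acts in the export and final processing of the particle, read 2968 and 679, 4.37-fold lower. NOB1, the endonuclease that makes the last cut of the small subunit RNA, read 4424 and 1077, 4.11-fold lower. TSR1, a GTPase-like factor that blocks premature entry of the translation machinery, read 6429.7 and 1851, 3.47-fold lower. BYSL and NOB1 had 1 probe set each. TSR1 had 4 and they did not agree. Its 3 brightest gave log2 ratios of -1.80, -1.50 and -0.79, and its dimmest, at 316 and 362, gave 0.20. That dimmest probe set is the only one of TSR1 whose name does not mark shared sequence. RRP12, an export factor of the same particles, was the exception among the late factors, at 906 and 681 on its brightest probe set and with log2 ratios of -0.52 to 0.31 over 4 probe sets.

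Several proteins of the early small subunit processome were lower. UTP20, a large scaffold protein, read 1006 and 321, 3.14-fold lower. RRP9, which belongs to the U3 snoRNP that docks on the precursor, was 3.17-fold lower, at 471 and 149, the latter only slightly above the floor. DDX10, an RNA helicase, was 2.56-fold lower at 1962 and 765. UTP14A, which activates a helicase of the processome, was 1.91-fold lower at 2432 and 1274, a signal made uncertain by a near-identical retrocopy of the gene. NAT10, the acetyltransferase that modifies the small subunit RNA, was 1.88-fold lower at 1968 and 1045. In each of these 5 genes only 1 probe set was measured.

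UTP4, UTP15, WDR43 and WDR75 form part of 1 subcomplex, the one that binds the growing precursor while it is still being transcribed, and their ratios ran over a wide span. WDR75 read 3491 and 1119, 3.12-fold lower. UTP4 read 6000.1 and 3844, 1.56-fold lower, and its second probe set had a log2 ratio of -1.25. WDR43 had nearly equal signals of 1877 and 1711. UTP15 was on the other side at 879 and 1253, a log2 ratio of 0.51. Its second probe set, with a p53 on signal below the floor, was at -0.92. NOP14, a core processome protein, also lay above 0, at 1562 and 2234 and a log2 ratio of 0.52. The name of its only probe set marks shared sequence. UTP15 and NOP14 passed 1.5-fold on the higher side after quantile normalization, at 0.60 and 0.59, and after loess on mean signal, at 0.78 and 0.77. After that loess UTP4 was at -0.53, no longer past 1.5-fold.

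All 8 measured large subunit genes were lower, with log2 ratios of -1.96 to -0.59 and a median of -1.17. NOP16, a nucleolar protein of early large subunit particles, read 3513 and 902, 3.89-fold lower. DDX56, a helicase of the large subunit, was 3.42-fold lower at 3074 and 898. RRS1, which helps to place the smallest ribosomal RNA, was 2.67-fold lower at 2690.1 and 1009. These 3 had the smallest ratios of the step. PES1 and WDR12, which with BOP1 form the PeBoW complex that large subunit processing needs, had similar log2 ratios of -1.10 (1839.6 and 857) and -1.16 (3854 and 1721). MRTO4, which holds the place of a stalk protein in the immature particle, was at -1.17 (3808 and 1691). NOP2, a methyltransferase of the large subunit RNA, read 4477 and 2239, just short of 2-fold lower.

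RRP1 was nearest to the threshold in this step, at 478 and 316 and a log2 ratio of -0.59, and it was not past 1.5-fold after loess (-0.48) or as the mean of its probe sets (-0.40). NOP16 was the member whose probe sets differed most. Its 2 brightest gave -1.96 and -2.09, and its 2 dim ones, at 352 and 369 and at 135 and 251, gave 0.071 and 0.90. For DDX56, MRTO4, WDR12 and RRP1 every measured probe set was below 0.

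The snoRNP proteins were nearly level, apart from GAR1. Of 5 measured members 1 was lower and none higher, with a median log2 ratio of -0.25. FBL, fibrillarin, the methyltransferase of the box C/D snoRNPs, read 12497 and 12122. NOP58, a scaffold of the same particles, read 10388 and 8754. NHP2, of the box H/ACA snoRNPs that make pseudouridine, read 11546 and 10471. The log2 ratios of these 3 were -0.044, -0.25 and -0.14. The names of the only probe sets of FBL and NHP2 mark shared sequence. GAR1, also of the box H/ACA particles, read 3920.4 and 2032, 1.93-fold lower. NOLC1, a chaperone of snoRNPs, read 10411 and 8569 on its brightest probe set, a log2 ratio of -0.28, but 5155 and 1337 on the next, which is -1.95. NOLC1 as the mean of its probe sets was at -0.82.

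Of the 4 abundant or multifunctional nucleolar proteins, LYAR was lower and NPM1 higher. LYAR, a zinc finger protein of precursor processing, read 5313 and 2899, 1.83-fold lower, and its second probe set was lower too, at -0.67. NCL, nucleolin, which binds the precursor and the ribosomal DNA, read 19296 and 15985, and DDX21, a helicase of transcription and processing, read 19057 and 14723. Their log2 ratios were -0.27 and -0.37, inside the 1.5-fold limits. DDX21 passed 1.5-fold on the lower side after quantile normalization (-0.61) and loess (-0.64). Scaling to the spike-ins put both genes past it, NCL at -1.19 and DDX21 at -1.29, with the median of all genes at -0.80.

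NPM1, nucleophosmin, a histone chaperone that also binds p53 regulators in the nucleolus, read 28218 and 53808, 1.91-fold higher. Its other probe sets read 22479.5 and 29127, and 15500.1 and 23591, so all 3 were above 0, with log2 ratios of 0.37 to 0.93. The size depended on how the arrays were scaled: NPM1 was at 0.37 after loess on mean signal, 0.15 after quantile normalization and 0.012 after scaling to the spike-ins, none of them past 1.5-fold. NPM1 has many processed pseudogenes, and the names of all its probe sets mark shared sequence.

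**Figure D2:**
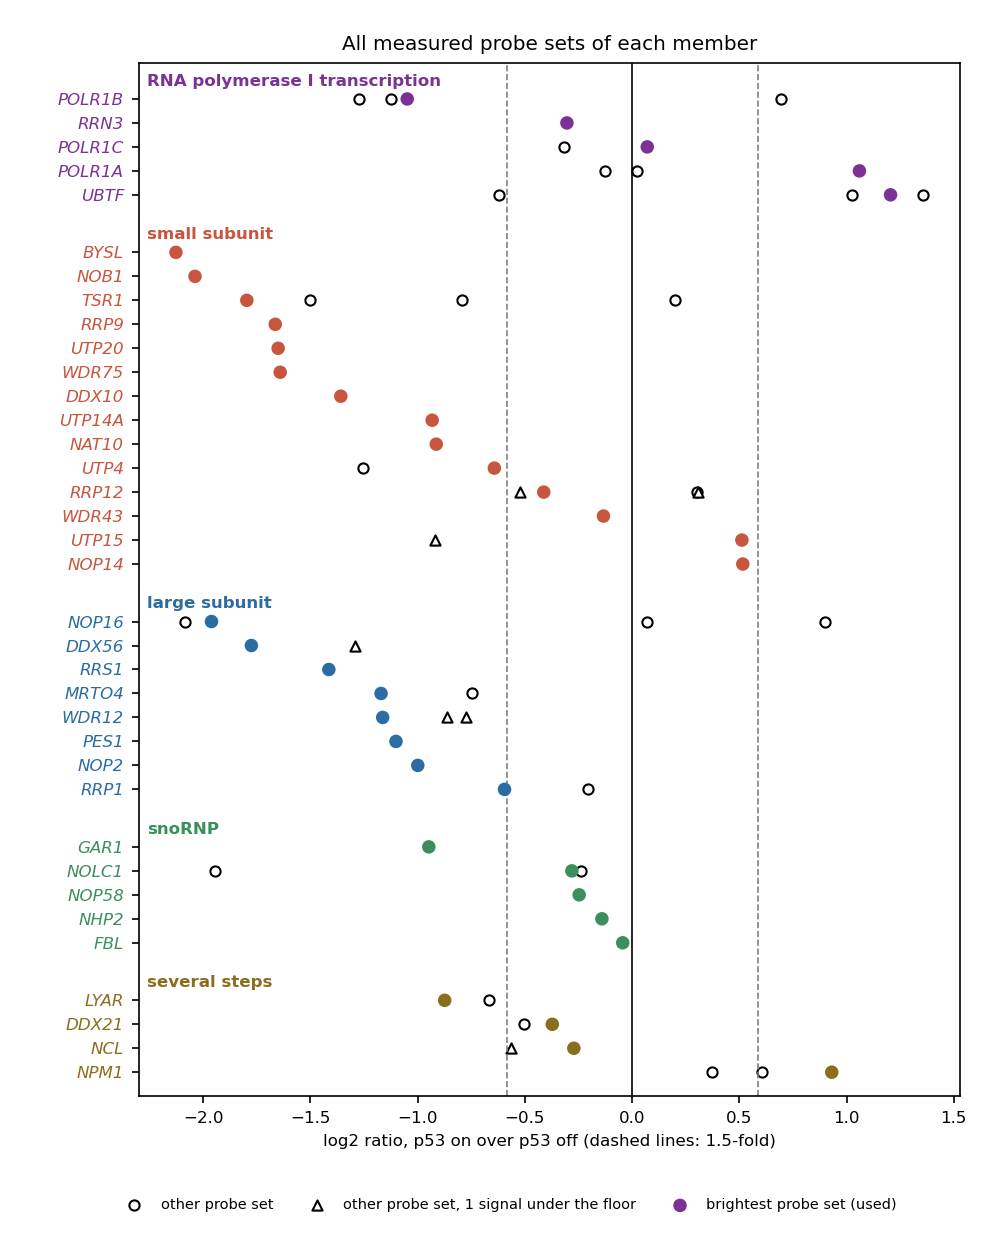
Log2 ratio of p53 on over p53 off for every measured probe set of each member, by step. Filled circles are the brightest probe sets used for the gene, open circles the others, triangles those with 1 signal under the floor, and dashed lines mark 1.5-fold; NOP16, TSR1, POLR1B and UBTF are among the 8 members with probe sets on both sides of 0.

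Several probe sets of 1 gene were the only repeat measurement. The members had 73 probe sets, of which 68 were measured. Of these, 51 were below 0 and 17 above. The 1.5-fold limit was passed by 35 on the lower side and by 8 on the higher side, against 25.7% and 24.6% of all 25962 measured probe sets annotated to 1 gene. In 18 members more than 1 probe set was measured. In 9 of those all were below 0, in NPM1 all were above, and in 8 they had both signs. A shared sign in 10 of 18 is near the 58.6% found among all 6680 genes with several measured probe sets. TSR1, NOP16, UBTF, POLR1A, POLR1B, POLR1C, RRP12 and UTP15 were the 8 with both signs. In UTP4, WDR12, DDX56, MRTO4 and LYAR every measured probe set was at least 1.5-fold lower. In no member was every one of several probe sets at least 1.5-fold higher. The share of all genes with either property was not counted, so these cases are a description only. The other probe sets of WDR12 (192 and 57, 204 and 29) and of DDX56 (275 and 74) were dim, with p53 on signals under the floor.

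The steps also differed in the brightness of their probe sets. A probe set's brightness depends on its probes as well as on the transcript, so it is no level of the gene. Limits of 1000 and 8000 in mean signal were chosen after the values were seen. Between them lay 24 members, of which 18 were lower and 1 higher, against 34.2% and 25.2% of 4505 genes of that brightness. Of these 24, the subunit genes were lower in 15 of 18 cases, and the members of other steps in 3 of 6 (POLR1B, GAR1 and LYAR). Above 8000 lay 7 members, FBL, NOP58, NHP2, NOLC1, NCL, DDX21 and NPM1, of which none was lower and 1 was higher. Of all 695 genes this bright 8.20% were lower and 33.2% higher, with a median log2 ratio of 0.26, while the 7 members had a median of -0.25. No subunit member was this bright, so at this brightness the snoRNP and multifunctional members cannot be set against the subunit members. The subunit genes of the further list below that were this bright had log2 ratios of 0.090 and 0.49. Across the 36 members the log2 ratio and log2 mean signal had a Pearson r of 0.23 and a Spearman rho of 0.13, a description over genes that share both arrays and whose ratio and mean come from the same signals.

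**Figure D3:**
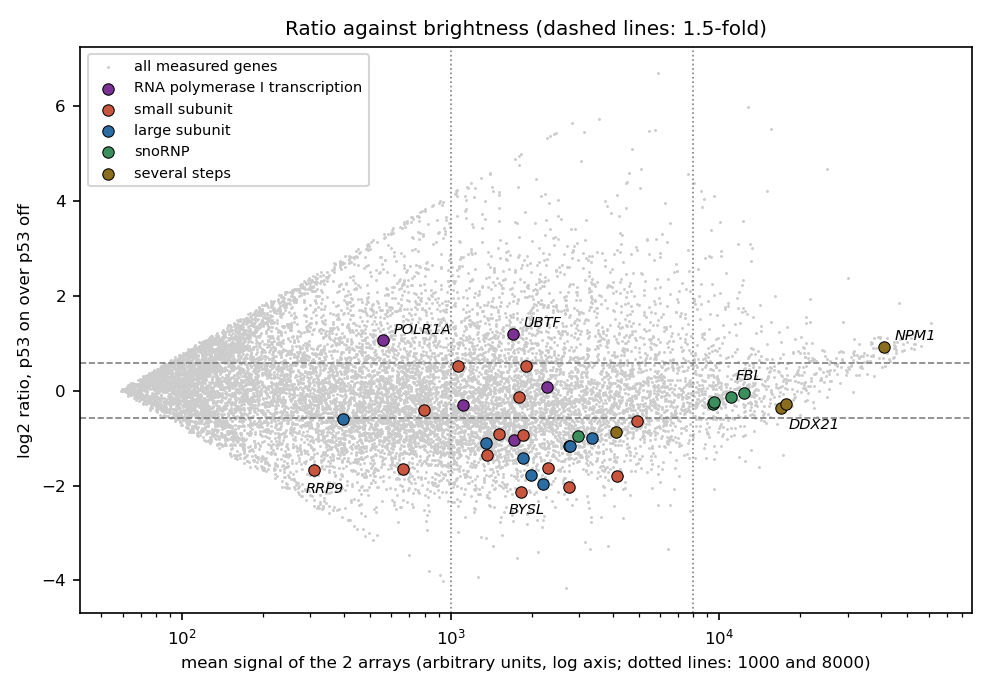
Log2 ratio of p53 on over p53 off against the mean signal of the 2 arrays (log axis, arbitrary units) for 13915 measured genes (grey) and the 36 members, coloured by step. Dashed lines mark 1.5-fold and dotted lines mean signals of 1000 and 8000; the 7 members to the right of 8000 are snoRNP and multifunctional proteins and lie close to 0, except NPM1.

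A list of 129 further ribosome biogenesis genes gave the wider picture. It was taken from textbook knowledge of the pathway and not by the genes' values, but with earlier results of these data known. Of 124 measured genes 69 were lower and 4 higher, beside 25.9% lower and 25.9% higher among all measured genes. The median log2 ratio of the further genes was -0.64, so the members, at -0.89, were not alone. In the small subunit 22 of 43 were lower and 3 higher. WDR46, a scaffold of the processome, was 4.26-fold lower (1220 and 287), and LTV1, an export factor of the small subunit, 3.63-fold lower (1642 and 453). RCL1, an enzyme-like processome protein, was 2.67-fold higher (520.3 and 1390.5) and NOL11, which links transcription to processing, 1.54-fold higher. In the large subunit 24 of 44 were lower and 1 higher. NLE1, an assembly factor, was at least 6.66-fold lower, with a p53 on signal of 85 under the floor, but its second probe set was at -0.18. URB2 was 2.80-fold lower and URB1, a scaffold of early large subunit particles, 1.87-fold higher, the only higher gene of this step.

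Of the further snoRNP genes 10 of 13 were lower, with a median of -0.92, beside 1 of 5 snoRNP members, with a median of -0.25. The further list holds assembly factors such as NAF1 beside core proteins such as NOP10, and the difference between the 2 lists was not tested. NAF1, which assembles box H/ACA particles, was 6.14-fold lower (1408 and 229). NOP10, a core protein of the same particles, was 3.47-fold lower, at 10986 and 3164, so among core proteins of box H/ACA particles NHP2 was level while GAR1 and NOP10 were lower. Among the further RNA polymerase I genes 4 of 10 were lower and none higher. TAF1A, of the promoter selectivity factor, was 5.05-fold lower (924 and 183) and POLR1G, a subunit of the polymerase, 2.15-fold lower. The group of the RNA exosome, which trims precursor ends and degrades spacers, also held MTREX, C1D and XRN2, which are not exosome subunits. In this group 9 of 14 genes were lower, with none higher and a median of -0.82. The exosome subunits EXOSC9 and EXOSC2 were 3.47-fold and 2.65-fold lower. In the promoter windows, 30 of 110 of these further genes held the E-box (27.3%), against 10.9% of protein-coding genes.

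**Figure D4:**
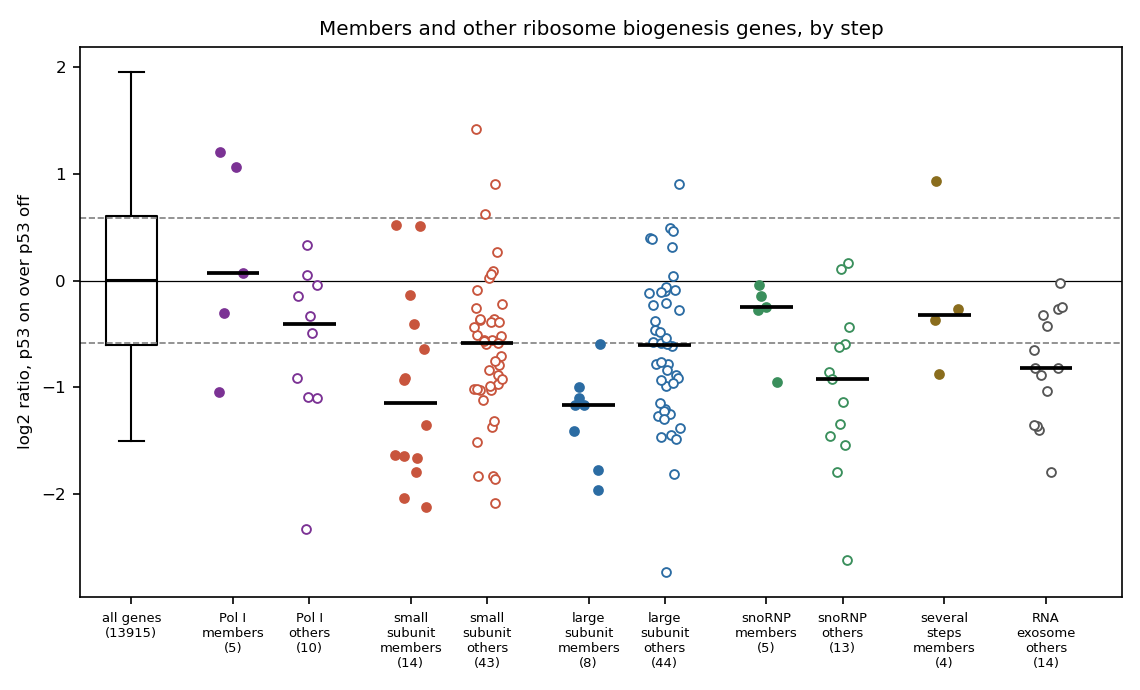
Log2 ratio of p53 on over p53 off for members (filled) and further ribosome biogenesis genes (open) by step, with the number of genes in parentheses, black bars at the medians and dashed lines at 1.5-fold. The box holds the quartiles of all measured genes, with whiskers at the percentiles 5 and 95; the subunit members have medians of -1.15 and -1.17 and the snoRNP members of -0.25.

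The order of the steps held under most ways of processing. Apart from scaling to the spike-ins, the small subunit median stayed between -1.15 and -0.89, the large subunit median between -1.17 and -0.96 and the snoRNP median between -0.32 and -0.25 over the other 8 settings and the one described. Without _x_at and _s_at probe sets the snoRNP median rested on 3 genes, since FBL and NHP2 then had no value. The RNA polymerase I median ran from -0.12 to 0.57 and so changed sign. After loess on mean signal, which takes out the trend with brightness, the medians of the small subunit, large subunit and snoRNP members were -0.89, -0.96 and -0.32. Then 20 members were lower and 4 higher, beside 22.4% and 26.2% of all genes.

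**Figure D5:**
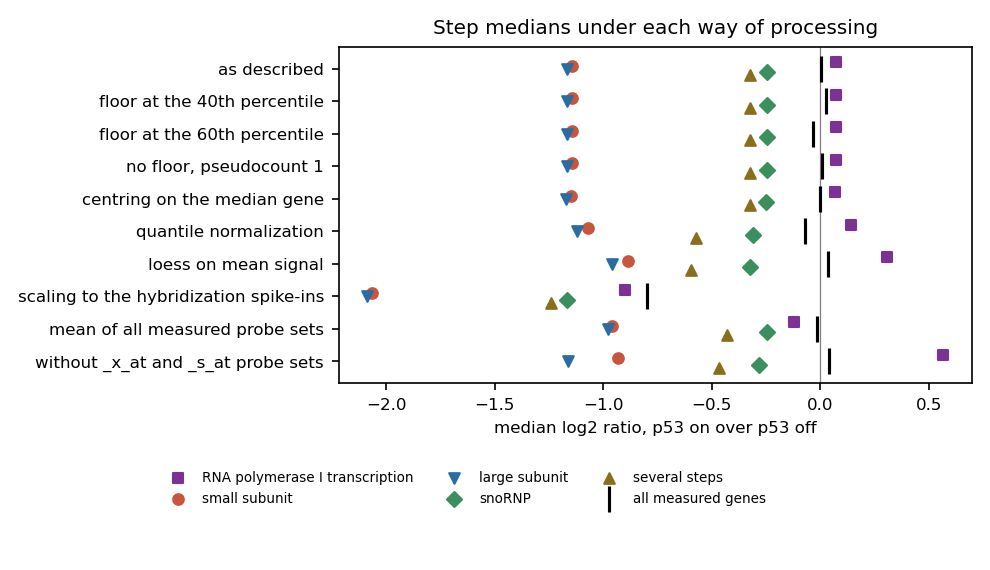
Median log2 ratio of p53 on over p53 off of each step (coloured symbols) and of all measured genes (black bar) under each way of processing. The small and large subunit medians lie left of the others in every row, and scaling to the spike-ins moves all of them, with the median of all genes at -0.80.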

How the data were processed

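Per the submitters' processing notes, the authors computed the signal intensities with MAS5, version not given in the sources used here. Deposited intensities of 54675 probe sets had a trimmed mean near 500 on both arrays, and no other normalization was added. Without controls, 54613 probe sets remained, of which 41091 carried 1 gene symbol, 1801 several and 11721 none in GEO's platform annotation. Symbols were updated by Entrez identifier to RefSeq names of GRCh38.p14 (41037 found), and probe sets with several symbols were left out. The floor is percentile 50 of these signals over both arrays. A gene under it on both arrays was not measured.

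The members and gene lists were chosen with earlier results of these data known. All 41 members may be named. Of the further genes, the 2 largest and 2 smallest ratios past 1.5-fold per step were named where all measured probe sets shared a sign. There were no replicates, so no test was run. An array has no read depth, and the number of arrays limits precision. No coordinates of probe sets were used. The gene encoding p53 is not reported here, and its induction was not checked. Other settings were floors at percentiles 40 and 60, a pseudocount of 1 without a floor, centring, quantile normalization, loess (span 0.3), scaling to spike-ins, the mean of all probe sets, and leaving out _x_at and _s_at probe sets. Members' protein lengths were planned as a further description and not used here. The procedure was tested on simulated data. Scripts ran under Python 3.11.15 (numpy 2.4.6, scipy 1.17.1, pandas 2.3.3) with statsmodels 0.14.6 for loess and figures from matplotlib 3.10.9.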

Additional observations from a re-analysis of the deposited data

Results flagged for a closer look

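Control probe sets stand outside the comparison of genes and differed between the arrays. A control that, from background knowledge of the array design and not from the files, targets the RNA of the small ribosomal subunit was brighter on the p53 on array, 2.95 times on its 3' probe set (192 and 565), 1.34 times on its middle one (249 and 333) and 1.25 times on its 5' one (135 and 168). The beta-actin control had a 3' signal 7.29 times its 5' signal on the p53 on array. The hybridization spike-ins were 1.89 times brighter there.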

How the results depend on the processing

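With 1 array per condition, no result has a replicate check. All counts and medians of the members kept their direction, and their counts stayed within 1.5 times, under the other floors, the pseudocount, centring and the mean of all probe sets, except that the RNA polymerase I median, which was near 0, changed sign in the last. Scaling to the spike-ins moved the members' median to -1.81, with 32 lower and 0 higher, and the medians of the small subunit, large subunit, snoRNP and multifunctional members to -2.06, -2.09, -1.17 and -1.24. The RNA polymerase I median was at -0.90 under that scaling, beside 0.071. It put the further genes at a median of -1.56, with 117 lower and 0 higher, and POLR1A at -0.90. Loess moved the median of the further genes to -0.49. Without _x_at and _s_at probe sets, 44 further genes were lower, of 83 still measured, and TSR1 was at 0.20 on the 1 probe set left. Of 24 members past 1.5-fold, 23 remained so after quantile normalization, 21 after loess, 21 after scaling to the spike-ins and 22 with the mean of all probe sets. Leaving out _x_at and _s_at probe sets kept only 29 of 36 members, with RRN3, NOP14, RRP1, FBL, NHP2, NPM1 and LYAR lost. Among the 29, 20 of 21 members past 1.5-fold remained so, and TSR1 and RRP12 changed sign.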
